A study of Mus musculus with 3 samples.

Results

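The 4 connexin genes Gja1, Gja4, Gja5 and Gjc1 were chosen by name as the connexins of vessels and adipocytes, and all 4 had a column in each table, among 23041, 23364 and 23089 genes in the untreated, sham and denervated libraries. Connexins are the proteins of gap junctions, the channels that join the cytoplasm of neighbouring cells and let ions and small molecules pass between them. In vessel walls they couple endothelial cells (ECs) to each other and to the mural cells around them, and in adipose tissue Cx43 joins adipocytes. Gja1 encodes Cx43, which is found in many tissues. Gja4 and Gja5 encode Cx37 and Cx40, the connexins best known from arterial endothelium, and Gjc1 encodes Cx45, known from mural cells, smooth muscle and the conduction system of the heart.

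The nuclei came from interscapular brown adipose tissue (BAT) of adult C57BL/6J mice labelled as wild-type, from the floating layer that holds brown adipocytes (BAs) and pieces of vessel, and were sorted and processed on the BD Rhapsody system, which captures transcripts with unique molecular identifiers (UMIs). There were 3 libraries, 1 per condition: untreated BAT, BAT labelled as sham-operated, and BAT denervated by cutting the nerves of the left lobe, taken 3 days later. The mice were male and aged 8 weeks, and 20 mice each are given for the untreated and the denervated experiment, the latter with tamoxifen in its scheme. How many mice went into each library, and whether they were pooled, is not given in the sources used here. The run name in the header of the denervated table reads nKO, although its labels say wild-type, and the genotype was not checked here, so every denervated value below is that of the library labelled as wild-type and denervated. The label of the sham library does not say whether its tissue was the intact lobe of operated mice or came from other mice, and animals within a library cannot be told apart. With 1 library per condition no difference between conditions has a replicate check, so no test was made and every interval below is an exact 95% interval for counting error only. Where no UMI was found, the share or level given as allowed is instead that of 3 UMIs, which is below the exact upper limit.

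The tables held 14971579, 14725864 and 9420030 UMIs in the untreated, sham and denervated libraries. After filters 10265 untreated, 11333 sham and 9444 denervated nuclei were kept, with a median of 998, 739 and 692 UMIs. Between 251 and 278 cell barcodes were shared by any 2 libraries. The class of a nucleus was rebuilt from marker genes that hold no connexin, and "-like" is left out of the class names below. The BAs held all 12 of their markers in each library, the capillary ECs all 8 and the pericytes (PCs) all 12, while 7 to 9 of the 10 smooth muscle markers had 3 or more UMIs in smooth muscle nuclei. Arterial ECs formed a sub-cluster in the untreated library (262 nuclei) and the sham library (187 nuclei) but not in the denervated one. There, arterial nuclei were found by a rule per nucleus, at least 2 UMIs of arterial markers and more than of capillary, venous and lymphatic markers together (181 nuclei). Levels are the UMIs of a gene in a class scaled to a fixed total (CPM), and because transcripts differ in how they are captured, levels of different connexins are not compared.

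The members lie on 4 chromosomes, and each protein is encoded in 1 or 2 exons. On GRCm38, Gja1 (ENSMUSG00000050953) lies on the plus strand of chromosome 10 from 56377330 to 56402513, with 2 exons in its longest coding transcript and a coding length of 1146 bases. Gja4 (ENSMUSG00000050234) lies on the minus strand of chromosome 4 from 127311421 to 127314039, with 2 exons and a coding length of 999 bases. Gja5 (ENSMUSG00000057123) lies on the plus strand of chromosome 3 from 96904693 to 97077416, with 4 exons and a coding length of 1104 bases. Gjc1 (ENSMUSG00000034520) lies on the minus strand of chromosome 11 from 102799579 to 102819700, with 3 exons and a coding length of 1188 bases. Only Gja5 overlapped other genes, 4 of them, all on the opposite strand. Whether the counting used strand is not given in the sources used here, and without strand the reads of such genes cannot be told apart from those of Gja5.

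The 250 bases before the RefSeq start of 3 members are shown because the UMIs of these genes lay in such different nuclei. They were read on the strand of the gene from RefSeq on GRCm38.p6, at chr10:56377050-56377299 (plus) for Gja1, chr4:127314040-127314289 (minus) for Gja4 and chr3:97032152-97032401 (plus) for Gja5. Capitals mark matches, on either strand, to the letters searched: CACCC of Kruppel-like factors, ATTGT of SOX factors, TGANTCA of AP-1 and GGGCGG of the GC box.
Gja1: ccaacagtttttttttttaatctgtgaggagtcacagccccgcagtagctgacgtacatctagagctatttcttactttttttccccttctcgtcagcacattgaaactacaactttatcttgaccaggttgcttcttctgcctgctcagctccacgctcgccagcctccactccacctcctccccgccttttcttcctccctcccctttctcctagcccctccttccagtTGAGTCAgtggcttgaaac
Gja4: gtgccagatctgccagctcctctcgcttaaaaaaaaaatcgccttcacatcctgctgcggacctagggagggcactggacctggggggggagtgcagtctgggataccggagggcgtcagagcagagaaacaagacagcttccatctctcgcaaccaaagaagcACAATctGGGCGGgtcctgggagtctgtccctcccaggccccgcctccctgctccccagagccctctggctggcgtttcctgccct
Gja5: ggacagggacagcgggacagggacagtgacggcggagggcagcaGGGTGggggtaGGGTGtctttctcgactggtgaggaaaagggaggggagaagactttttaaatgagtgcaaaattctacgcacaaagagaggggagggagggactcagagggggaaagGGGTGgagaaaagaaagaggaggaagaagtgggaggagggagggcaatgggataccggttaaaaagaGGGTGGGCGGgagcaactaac
The Gja1 window held 1 match, to the AP-1 letters, at position -19 from the start, and 6.75% of the 32851 promoter windows of this length held these letters. The Gja4 window held the SOX letters at -86 on the opposite strand (read as ACAAT), which 27.7% of windows held, and a GC box at -79, which 32.7% held. The Gja5 window held the Kruppel-like letters 4 times on the opposite strand (read as GGGTG), at -206, -195, -88 and -21, and 52.0% of windows held them at least once. Its GC box at -17 overlapped the last of these matches. None of the 3 windows held the letters of RBPJ (TGGGAA), the E-box of HEY factors (CACGTG) or a TATA box (TATAAA), which 21.6%, 6.02% and 12.4% of windows held. A match is a description of the letters and not of binding.

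**Figure D1:**
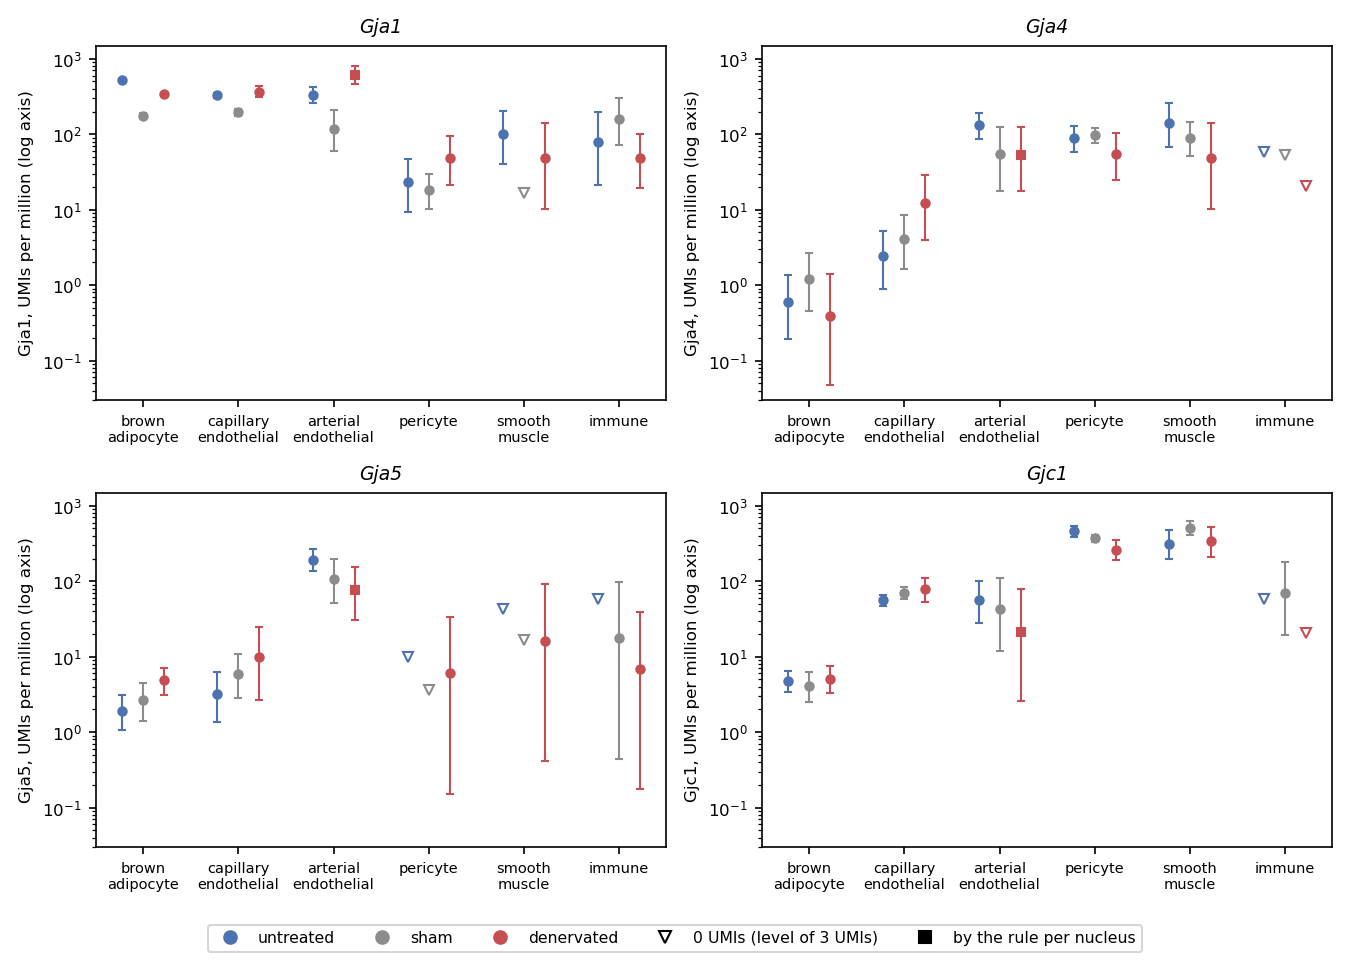
Level of each connexin in CPM (log axis) in 6 classes of nuclei and 3 libraries, with exact 95% counting intervals; open triangles are the level that 3 UMIs would give where none was found, and squares are nuclei classed one by one. Gja5 and Gja4 were high in arterial ECs (193 and 132 CPM untreated), Gjc1 in pericytes and smooth muscle (315 to 458 CPM untreated), and Gja1 in BAs and all ECs shown (329 to 523 CPM untreated).

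The first question was which vessel segment held the transcript of each connexin. Gja5 was high in arterial ECs. Its level there was 193 CPM in the untreated library (38 UMIs, in 25 of 262 nuclei) and 108 CPM in the sham library (10 UMIs, in 8 of 187 nuclei), and it was 75.4 CPM in the 181 arterial nuclei of the denervated library (7 UMIs). In capillary ECs it was 3.20, 5.86 and 9.77 CPM in the untreated, sham and denervated libraries, from 4 to 10 UMIs each. The arterial level was thus above the capillary level in every library, by a log2 ratio of 5.91 (4.79 to 7.22) untreated, 4.20 (2.78 to 5.62) sham and, by the rule per nucleus in both classes, 3.55 (1.42 to 6.13) denervated. The rule per nucleus gave lower arterial levels in the other two libraries, 115 CPM untreated and 52.4 CPM sham, against 4.01 and 8.78 CPM in capillary nuclei, and a sham log2 ratio of 2.58 (1.5 to 3.63). Connexins enter neither the rule per nucleus nor the variable genes used for clustering.

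No Gja5 UMI was found in 346 untreated or 1066 sham PCs, which allows a share of nuclei with a UMI of up to 0.867% and 0.281%. In the denervated library 1 of 417 PCs held a UMI (6.06 CPM). Against a floor of 3 UMIs in the PCs, the arterial level as counted was 19.5-fold higher in the untreated and 29.6-fold higher in the sham library. The counting error of the arterial level, 136 to 265 CPM untreated and 51.7 to 198 CPM sham, is not in these values. Smooth muscle nuclei held no UMI in the untreated and sham libraries and 1 in the denervated library. Venous ECs, found as a sub-cluster in the sham library (123 nuclei), held none either, which allows up to 2.44% of them to hold a UMI. The 16 arterial markers together, by contrast, stood in PCs at 23.0% and 22.1% of their arterial level in the untreated and sham libraries. ECs without a segment name held 4.78 CPM (3 UMIs), 13.7 CPM (17 UMIs) and 19.4 CPM (10 UMIs) in the untreated, sham and denervated libraries, so that arterial nuclei had the highest Gja5 level of the named classes but not all of its endothelial UMIs. Gja5 was also counted at low levels in BAs, at 1.88 CPM (16 UMIs), 2.65 CPM (13 UMIs) and 4.87 CPM (25 UMIs). In the untreated and sham libraries these were 0.977% and 2.46% of the arterial level, beside 1.82% and 1.62% for the arterial markers in BAs.

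Gja4 was found in arterial ECs and in mural nuclei alike. In arterial ECs it stood at 132 CPM untreated (26 UMIs, in 22 nuclei), 53.9 CPM sham (5 UMIs) and 53.8 CPM denervated (5 UMIs, rule per nucleus). Capillary ECs held 2.40, 4.10 and 12.2 CPM, from 5 to 7 UMIs a library. The log2 ratio of arterial over capillary ECs was 5.78 (4.47 to 7.35) untreated, 3.72 (1.72 to 5.59) sham and 3.65 (1.04 to 7.04) denervated, the last by the rule per nucleus and from 7 UMIs in all. PCs held 88.9 CPM (27 UMIs), 97.2 CPM (80 UMIs) and 54.6 CPM (9 UMIs), and smooth muscle nuclei 143 CPM (10 UMIs), 88.9 CPM (16 UMIs) and 48.9 CPM (3 UMIs). These mural levels could not be separated from the arterial level, with a log2 ratio of arterial ECs over PCs of 0.57 (-0.27 to 1.40) untreated and -0.85 (-2.51 to 0.43) sham. PCs were above capillary ECs by 5.21 (3.91 to 6.78), 4.57 (3.46 to 5.93) and 2.16 (0.43 to 4.08).

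PC sub-clusters differed in their Gja4 level. They ran from 41.9 CPM (13.6 to 97.7) to 119 CPM (74.8 to 181) in the untreated library, with intervals that overlap. In the sham library they ran from 50.4 CPM (25.2 to 90.2) to 168 CPM (108 to 250), where the intervals of the lowest and the highest do not overlap. The lowest were also poorest in PC markers, with a mean log2 ratio to the other mural nuclei of -0.77 untreated and -0.26 sham. The highest stood at 0.64 and 0.28, but the sham sub-cluster richest in PC markers, at 0.49, was not the highest in Gja4. The part of the markers in this difference was not tested. Nuclei outside vessels held almost none. BAs held 5, 6 and 2 UMIs, levels of 0.589, 1.22 and 0.389 CPM, and no UMI was found in immune nuclei, which allows up to 4.69%, 4.35% and 1.20% of them to hold one in the untreated, sham and denervated libraries.

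Gja4 and Gja5 were partly found in the same nuclei. Of the 25 untreated arterial nuclei with a Gja5 UMI, 7 also had a Gja4 UMI (28%), against 6.33% of the arterial nuclei without Gja5. The nuclei with Gja5 were also deeper, with a median of 1048 against 696 UMIs, and the part of depth in this difference was not tested. In the sham library 1 of 8 nuclei with Gja5 had Gja4. Of all Gja5 UMIs in kept nuclei of the untreated library, 56.7% lay in arterial ECs, which were 2.55% of the nuclei, while Gja4 UMIs were shared between arterial ECs (30.6%) and PCs (31.8%). In the sham library 17.5% of the Gja5 UMIs and 4% of the Gja4 UMIs lay in arterial ECs, and PCs held 64% of the Gja4 UMIs. PCs were 3.37% of the nuclei in the untreated and 9.41% in the sham library.

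**Figure D2:**
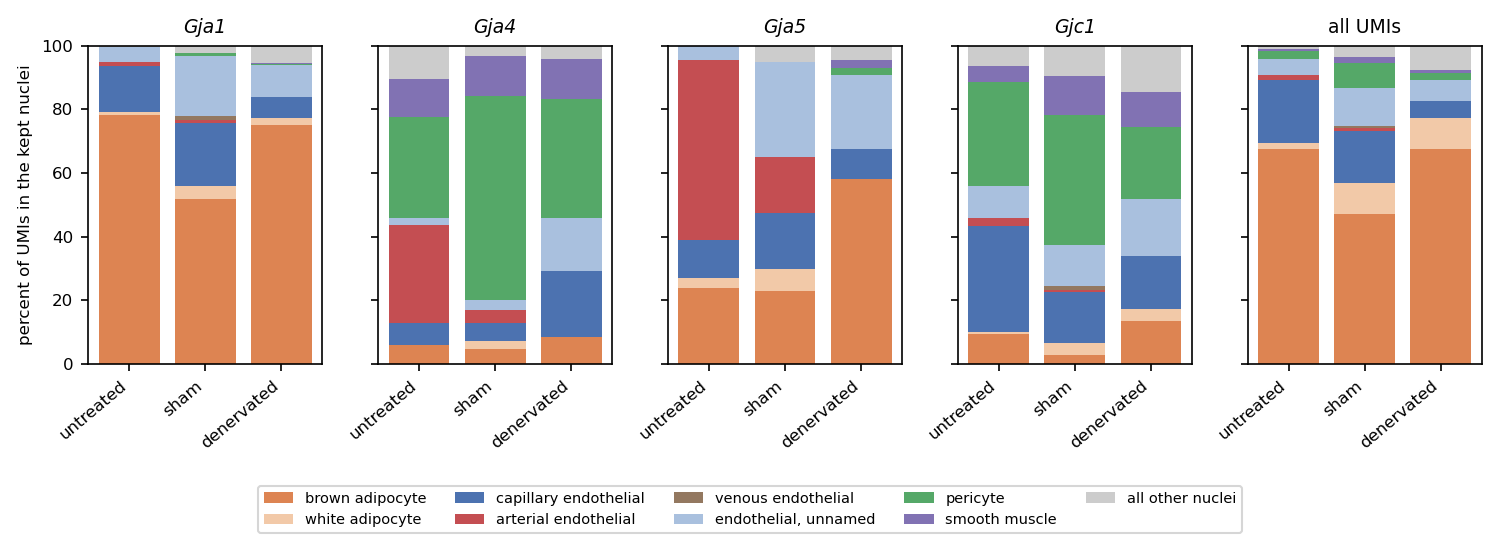
Percent of each connexin's UMIs, and of all UMIs, that lay in each class of kept nuclei, by library. In the untreated library 78.3% of Gja1 UMIs lay in BAs, 56.7% of Gja5 UMIs in arterial ECs, and Gjc1 UMIs were divided between capillary ECs (33.2%) and PCs (32.7%), while BAs held 67.6% of all UMIs.

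Gja1 and Gjc1 showed no such gap between arterial and capillary sub-clusters. The log2 ratio of arterial over capillary ECs was 0.027 (-0.36 to 0.39) untreated and -0.73 (-1.74 to 0.13) sham for Gja1, and -0.015 (-1.05 to 0.87) and -0.71 (-2.60 to 0.69) for Gjc1, all with intervals that include 0. By the rule per nucleus Gja1 was higher in arterial nuclei by 0.38 (0.10 to 0.64) untreated and 0.68 (0.22 to 1.11) denervated, both under 2-fold, and lower by a ratio of -0.48 (-0.95 to -0.04) sham. In the untreated library 2 of the 4 members, Gja4 and Gja5, were therefore past 2-fold, both higher in arterial ECs, where 19.2% of 9761 genes with at least 20 UMIs in the 2 classes together were past 2-fold in either direction. In the sham library 3 members reached 20 UMIs and 1 of them, Gja5, was past 2-fold, beside 29.5% of 8956 genes. The rest of the program of arterial connexins was looked at through 8 textbook regulators, of which 7 were measured deeply enough. Hey1, a target of Notch, and Sox17, an arterial transcription factor, were past 2-fold higher in arterial ECs in both libraries, by 3.14 and 2.77 (log2 ratio) untreated and 3.24 and 2.22 sham, but both are among the markers that named the class. The flow-responsive factors Klf2 and Klf4 were higher by 1.72 and 1.78 in the sham library and stood at 0.044 and 0.29 in the untreated one. Of the receptors Notch1 and Notch4, the first stood at 0.64 untreated and 0.23 sham and the second at 0.33 and 0.44, beside a median of 0.075 and 0.16 over all genes.

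Gjc1 was highest in mural nuclei among the named classes, where Gja4 was counted too. PCs held 458 CPM in the untreated library (139 UMIs), 369 CPM in the sham library (304 UMIs) and 261 CPM in the denervated library (43 UMIs). A Gjc1 UMI was found in 27.7%, 22.3% and 8.15% of PCs at medians of 810.5, 747 and 364 UMIs per nucleus. After thinning each nucleus to 500 UMIs these shares were 17.8%, 13.5% and 14.5%, the last from the 69 deep enough of 417 denervated PCs, with an interval of 7.17% to 25%. Thinned to 300 UMIs, which kept 313 denervated PCs, they were 13.3% (9.85 to 17.4), 10.7% (8.91 to 12.7) and 6.07% (3.69 to 9.32), lowest in the denervated library. Smooth muscle nuclei held 315 CPM (22 UMIs), 511 CPM (92 UMIs) and 343 CPM (21 UMIs). The log2 ratio of smooth muscle over PCs was -0.54 (-1.26 to 0.11), 0.47 (0.12 to 0.81) and 0.39 (-0.43 to 1.18), so that the order of the 2 mural classes was not the same in the 3 libraries. By the rule per nucleus the sham value was -0.039 (-0.61 to 0.48) and the denervated value 1.39 (0.40 to 2.27).

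Capillary ECs held Gjc1 too, at a lower level of 56.4 CPM (141 UMIs), 70.3 CPM (120 UMIs) and 78.2 CPM (32 UMIs). PCs were above them by a log2 ratio of 3.02 (2.67 to 3.37) untreated, 2.39 (2.08 to 2.71) sham and 1.74 (1.04 to 2.45) denervated. The 12 PC markers together stood at 1.79%, 1.79% and 3.51% of their PC level in capillary ECs, and Gjc1 at 12.3%, 19.0% and 30%. The removal of doublets used these PC markers and no connexin. It held down the marker shares, which therefore give no bound on PC RNA counted in capillary ECs. Arterial ECs held 55.8 CPM (11 UMIs) and 43.1 CPM (4 UMIs) in the untreated and sham libraries, and sham venous ECs 128 CPM (11 UMIs). BAs held 4.71, 4.07 and 5.06 CPM, and immune nuclei no UMI in the untreated and denervated libraries. Sham immune nuclei held 70.2 CPM (19.1 to 180, 4 UMIs), with a UMI in 5.80% of 69 nuclei against 3.21% of sham capillary ECs. At 300 UMIs the shares were 4.41% (0.92 to 12.4) against 2.20% (1.70 to 2.80). At 500 UMIs they were 1.85% (0.047 to 9.89) against 2.63% (1.83 to 3.66). The order thus depended on the depth, and Gjc1 in sham capillary ECs could not be separated from the immune level. Against capillary ECs of the untreated library, PCs had 3 members with enough UMIs, all past 2-fold, Gja4 and Gjc1 higher and Gja1 lower, where 38.3% of 10175 genes were past 2-fold.

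Gja1 was counted in BAs and in ECs, and was scarce in PCs. In BAs it stood at 523 CPM untreated (4446 UMIs), 176 CPM sham (867 UMIs) and 338 CPM denervated (1737 UMIs). A Gja1 UMI was found in 49.5% of 4628, 19.1% of 3363 and 22.5% of 5083 BAs. At an equal depth of 500 UMIs per nucleus the shares were 20.5% (19.3 to 21.7), 7.83% (6.92 to 8.81) and 12.8% (11.8 to 13.8). Capillary ECs held 329 CPM (822 UMIs), 196 CPM (335 UMIs) and 366 CPM (150 UMIs), with a UMI in 19.6%, 8.01% and 16.9% of nuclei and, at 500 UMIs, in 13.1%, 6.19% and 12.6%. That depth left out 236 of 2974 untreated, 2042 of 3334 sham and 244 of 626 denervated capillary ECs, and at 300 UMIs, which left out 10, 426 and 20, the shares were 9.11%, 5.30% and 8.58%. Immune nuclei, whose own level of Gja1 was not tested, had a UMI in 6.25%, 11.6% and 2.01% of 64, 69 and 249 nuclei. Their medians were 636, 705 and 454 UMIs, beside 442 UMIs for sham capillary ECs. The sham capillary share and the 5.35% of sham arterial ECs were thus below the sham immune share as counted. At 500 UMIs the sham immune share was 11.1% (4.19 to 22.6, 54 nuclei), but at 300 UMIs it was 1.47% (0.037 to 7.92, 68 nuclei), below the 5.30% (4.51 to 6.17) of capillary ECs, so the order of the sham capillary and immune shares depended on the depth. Sham immune nuclei also held the 8 capillary markers at 32.1% of the capillary level. After subtraction of the profile of barcodes with under 200 genes, taken as free RNA, 298 of the 335 Gja1 UMIs of sham capillary ECs were left. Whether those barcodes held free RNA or shallow nuclei was not tested. The 1.73%, 1.22% and 1.44% of PCs with a Gja1 UMI were below the immune share of each library as counted.

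The order of BAs and capillary ECs in Gja1 depended on the library. The log2 ratio of BAs over capillary ECs was 0.67 (0.56 to 0.78) in the untreated library, -0.15 (-0.34 to 0.03) in the sham library and -0.12 (-0.36 to 0.14) in the denervated library, the last 2 with intervals that include 0. With a minimum of 500 genes per nucleus the denervated value was 0.79. Gja1 in capillary ECs was not in proportion to the BA markers counted there. The 12 BA markers together stood in capillary ECs at 13.7%, 13.3% and 11.9% of their BA level, and Gja1 at 62.8%, 111% and 108% of its own. In PCs the same markers stood at 20.3%, 20% and 21.8%, and Gja1 at 4.40%, 10.3% and 14.3%. The removal of doublets used these BA markers and no connexin. It held down the marker shares, which therefore give no bound on BA RNA counted in other classes. Its level in PCs was 23.0 CPM (7 UMIs), 18.2 CPM (15 UMIs) and 48.5 CPM (8 UMIs), with log2 ratios over capillary ECs of -3.83, -3.43 and -2.92. Of the members with enough UMIs, BAs against capillary ECs of the untreated library had 1 of 3 past 2-fold, Gjc1, which was lower in BAs by a log2 ratio of -3.58 (-4.13 to -3.07), beside 48.1% of 13616 genes.

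Among ECs, the nuclei without a segment name together held 419, 254 and 459 CPM of Gja1, above the capillary level of each library. Sham venous ECs held 280 CPM (24 UMIs), a log2 ratio of 0.51 (-0.15 to 1.11) over capillary ECs, and arterial ECs 335 CPM untreated (66 UMIs) and 119 CPM sham (11 UMIs). Smooth muscle nuclei held 100 CPM untreated (7 UMIs), none in 258 nuclei of the sham library, which allows up to 1.16% of them to hold a UMI, and 48.9 CPM denervated (3 UMIs).

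Within BAs, Gja1 was low in the nuclei led by stress genes. In the untreated library 5 BA sub-clusters stood between 502 and 602 CPM. The sixth, 588 nuclei led by the heat-shock genes Hspa1a, Hspa1b and Dnajb1, stood at 206 CPM (174 to 242) at a median of 1137 UMIs, while the shallowest of the others, at a median of 532 UMIs, stood at 569 CPM. In the denervated library the 1158 nuclei led by Hspa1a and Hspa1b held 143 CPM (117 to 172) and the other 4 BA sub-clusters 269 to 437 CPM. In the sham library the 660 nuclei led by Jund, Jun and Nr4a1 held 103 CPM (81.9 to 127) and the other BA sub-clusters 138 (102 to 181) to 205 CPM. The lowest BA sub-cluster of each library was thus one led by heat-shock or immediate-early genes. Nuclei named for white adipocyte markers were lower still in 2 libraries, at 64.2 CPM sham (924 nuclei) and 65.8 CPM denervated (841 nuclei), and at 234 CPM untreated (157 nuclei), with log2 ratios over BAs of -1.46 (-1.85 to -1.09), -2.36 (-2.80 to -1.95) and -1.16 (-1.59 to -0.76). These nuclei kept the 12 BA markers at 107%, 51.4% and 79.5% of the BA level in the sham, denervated and untreated libraries, and the larger ones were led by Thbs1 (sham) and by Cxcl1 (denervated). Their name rests on 5 markers.

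**Figure D3:**
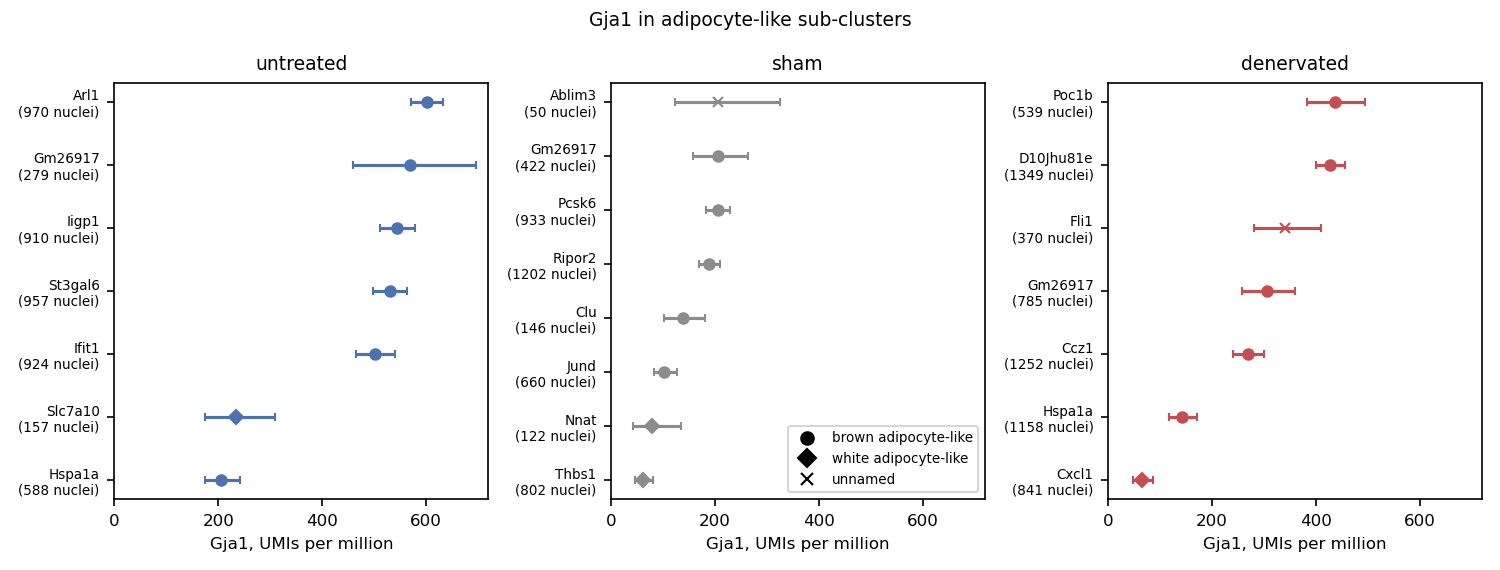
Gja1 in CPM with exact 95% counting intervals in each adipocyte sub-cluster of each library, named by its leading gene, with circles for BAs, diamonds for nuclei named for white adipocyte markers and crosses for unnamed nuclei. The heat-shock sub-clusters held 206 CPM (untreated) and 143 CPM (denervated), below every other BA sub-cluster of the same library.

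Gja1 also varied with the depth of a nucleus, when the nuclei of a class were divided by depth into 4 bins of equal size. From the shallowest to the deepest bin of BAs it went from 355 to 589 CPM untreated and from 183 to 424 CPM denervated, with intervals that do not overlap, and from 161 (131 to 196) to 181 (163 to 202) CPM sham. Across the bins of capillary ECs it went from 390 to 266 CPM untreated, 296 to 136 CPM sham, and 434 (281 to 641) to 337 (257 to 435) CPM denervated. All but the shallowest BA bin of the denervated library (242, 346 and 424 CPM at medians of 764, 1057 and 1615.5 UMIs) lay above all 4 sham bins, which had medians of 787 to 2079 UMIs. The shallowest, at 183 CPM (152 to 219), had an interval that overlaps those of the sham bins. The heat-shock BA sub-clusters, which were low in Gja1, had medians of 1137 UMIs untreated and 638.5 UMIs denervated. These lay between the medians of the shallowest and the next bin, 976 and 1575 UMIs untreated and 523 and 764 UMIs denervated. The part of these sub-clusters in the differences between bins and libraries was not tested.

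**Figure D4:**
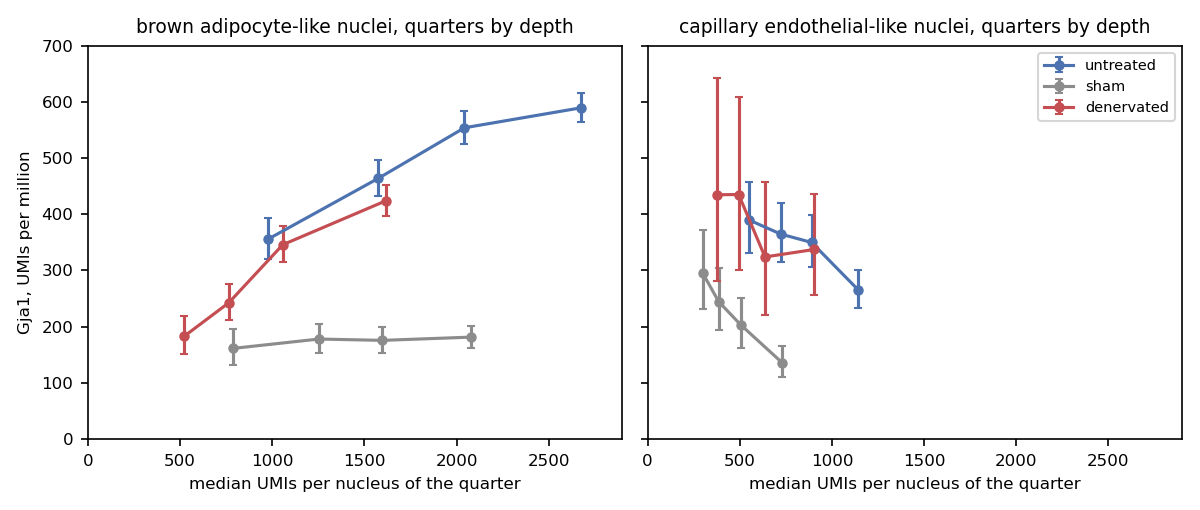
Gja1 in CPM against the median UMIs per nucleus in 4 bins of BAs (left) and of capillary ECs (right) ordered by depth, with exact 95% counting intervals, for the 3 libraries. Untreated BAs climb from 355 to 589 CPM while sham BAs stay between 161 and 181 CPM, and capillary ECs of all 3 libraries are lower in the deepest bin than in the shallowest.

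The second question was how the members differed after denervation. Gja1 in BAs was higher in the denervated than in the sham library by a log2 ratio of 0.94 (0.82 to 1.06), 338 against 176 CPM, a 1.92-fold difference. Over the untreated library the ratio was -0.63 (-0.71 to -0.55), and the sham library stood at -1.57 (-1.67 to -1.46) over the untreated one, so that the sign of the denervated library's difference depended on the library it was set against. These ratios share libraries and are given side by side. BA sub-clusters with heat-shock genes among their 10 leading genes were present in all 3 libraries (588 untreated, 660 sham and 1158 denervated nuclei). Over all barcodes before the filters, not in BAs alone, the share of mitochondrial UMIs was 6.71%, 12.9% and 2.95% in the untreated, sham and denervated libraries. Barcodes with under 200 genes held Gja1 at 582 CPM in the denervated library, above its BAs. In the untreated and sham libraries they held it at 234 and 83.0 CPM. After subtraction of such RNA as free RNA, 1680 of the 1737 denervated and 837 of the 867 sham Gja1 UMIs of BAs were left. Whether these barcodes held free RNA or shallow nuclei was not tested, so the UMIs left set no bound on background. The part of such RNA in the difference was not tested beyond this.

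Of the other members in BAs, Gja5 was at 4.87 CPM denervated against 2.65 CPM sham, a log2 ratio of 0.88 (-0.14 to 1.97), and above the untreated library by 1.37 (0.41 to 2.37) from 25 and 16 UMIs. Barcodes with under 200 genes held Gja5 at 11.5 CPM (10 UMIs) in the denervated library, above its BAs, and at 2.01 CPM (1 UMI) in the untreated one. After the same subtraction, 23.9 of the 25 denervated and 15.4 of the 16 untreated Gja5 UMIs of BAs were left. This sets no bound on background either. The part of such RNA in this difference was not tested beyond this. Gjc1 in BAs differed by 0.31 (-0.58 to 1.23) from sham and 0.10 (-0.67 to 0.85) from untreated. Counted by the 2-fold rule, 0 of 3 members were past it in denervated over sham BAs, where 24.2% of 13749 genes were, 1 of 3 (Gja5, higher) in denervated over untreated BAs, where 9.76% of 14449 were, and 1 of 3 (Gja1, lower) in sham over untreated BAs, where 18.3% of 13961 were.

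In capillary ECs, Gja1 was higher in the denervated than in the sham library by 0.90 (0.61 to 1.18) and differed from the untreated library by 0.16 (-0.10 to 0.41). Over all ECs the levels were 346, 219 and 418 CPM untreated, sham and denervated, and the denervated over sham ratio was 0.93 (0.75 to 1.11). In the 181 denervated and 508 sham arterial nuclei of the rule per nucleus Gja1 stood at 614 CPM (57 UMIs) and 161 CPM (46 UMIs), a ratio of 1.93 (1.35 to 2.53). Of 4174 genes with at least 20 UMIs, 20.7% were past 2-fold in this comparison. The 420 untreated arterial nuclei of the same rule held 429 CPM (131 UMIs), so that the sham level was the lowest here too. The denervated over sham ratio of Gja1 was thus above 0 in BAs, capillary ECs and arterial nuclei. It was not measurably so in the nuclei named for white adipocyte markers, at 0.035 (-0.53 to 0.59). As counted, the sham shares with a UMI (8.01% of capillary and 7.87% of arterial nuclei) were below the 11.6% of sham immune nuclei. At 300 UMIs the sham capillary share was 5.30% against 1.47% (0.037 to 7.92) in immune nuclei, the reverse order. In the same arterial nuclei the denervated over sham ratio was 1.14 (-0.86 to 3.01) for Gja4 and 0.52 (-1.01 to 1.91) for Gja5, while sham over untreated it was -1.80 (-3.25 to -0.56) and -1.13 (-2.11 to -0.22). With a minimum of 500 genes per nucleus the capillary ratio of Gja1 was no longer above 0, at -0.0092. Gjc1 in capillary ECs differed by 0.15 (-0.46 to 0.73), and by -0.54 with at most 10% mitochondrial UMIs. The 626 denervated capillary nuclei were 1 sub-cluster led by Mki67, Marcksl1 and Top2a, genes of cycling cells among them. Its 10 leading genes held no capillary marker and included Plvap and Ehd4, which also lead the sham venous sub-cluster, and the 10 venous markers together stood at 598 CPM in it against 281 and 241 CPM in sham and untreated capillary ECs, beside 5134, 6515 and 6944 CPM for the 8 capillary markers. The part of these nuclei in the difference was not tested. By the 2-fold rule 0 of 2 members were past it in denervated over sham capillary ECs, beside 21.7% of 9457 genes.

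In PCs Gjc1 was lower in the denervated than in the sham library. It differed by -0.50 (-1.0 to -0.038), 261 against 369 CPM, and from the untreated library by -0.81 (-1.34 to -0.31). For Gja4 the values were -0.83 (-2.01 to 0.16) and -0.70 (-1.98 to 0.43), with intervals that include 0, and with at most 10% mitochondrial UMIs the first was -2.26. The summed level of the 12 PC markers in PCs also differed, at 9111 CPM denervated against 18281 CPM sham and 15659 CPM untreated, and its part in the difference was not tested. In smooth muscle nuclei Gjc1 was at 343 CPM denervated and 511 CPM sham, a ratio of -0.58 (-1.34 to 0.12), which joint clustering of the libraries turned to 0.20 and the rule per nucleus to 1.0. Denervated smooth muscle nuclei held the 10 fibroblast markers at 3051 CPM against 289 CPM sham and the 10 smooth muscle markers at 4487 against 9033 CPM, and the part of this in the ratio was not tested. By the 2-fold rule 1 of 3 members, Gja1, was past it in denervated over sham PCs, at 1.41 (-0.033 to 2.74) from 8 and 15 UMIs, beside 23.3% of 7826 genes. The share of PCs with a Gja1 UMI was below the immune share in both libraries as counted, so this ratio rests on counts that could not be told from background. After subtraction of the profile taken as free RNA none of the 8 denervated UMIs was left (-0.76). Whether that profile is free RNA was not tested.

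**Figure D5:**
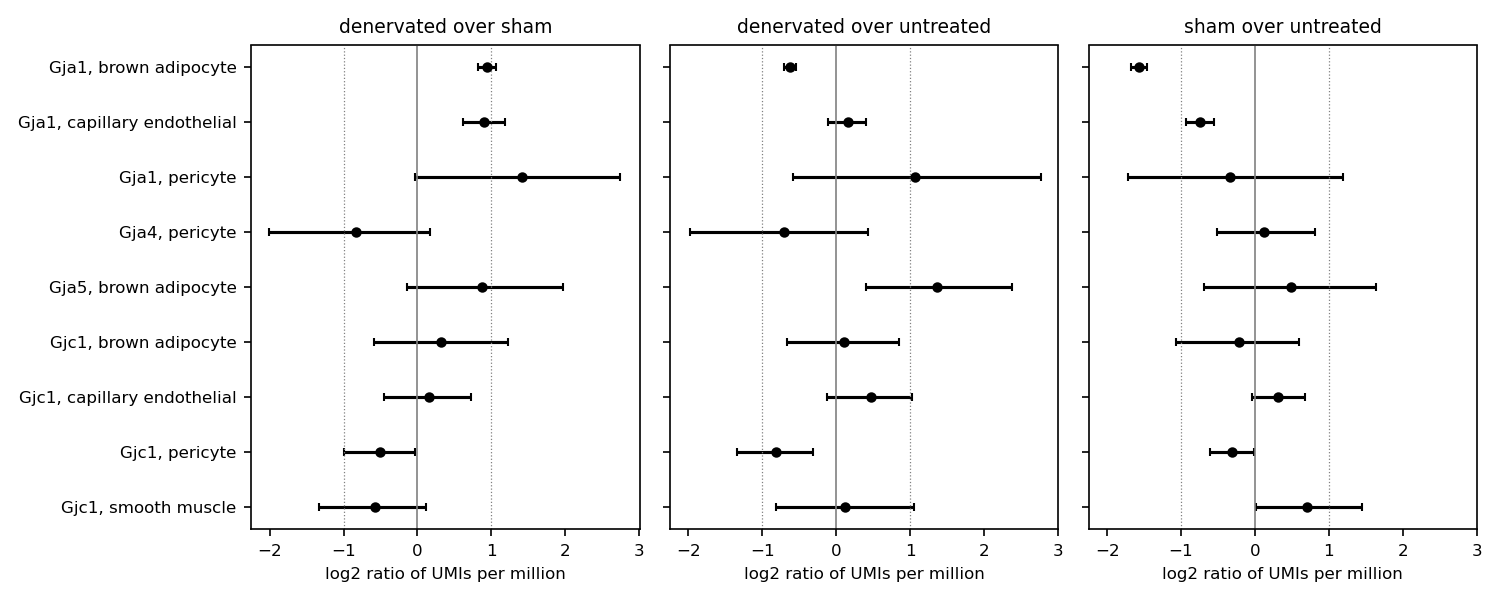
Log2 ratio of CPM between libraries for members and classes with enough UMIs, with exact 95% counting intervals; dotted lines mark 2-fold. Gja1 in BAs lies at 0.94 for denervated over sham, at -0.63 for denervated over untreated and at -1.57 for sham over untreated, and Gjc1 in PCs lies below 0 in all 3.

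The partners of connexins were read from a list of 10 scaffold, trafficking and junction genes. In untreated BAs against capillary ECs 7 of them had enough UMIs, of which 2 were past 2-fold higher and 5 lower, where 48.1% of all genes were past 2-fold. Cdh2, the N-cadherin of adherens junctions, stood at 116 CPM in BAs against 8.0 CPM in capillary ECs, a log2 ratio of 3.85 (3.22 to 4.57), and Cnst, which encodes consortin, a protein of connexin trafficking, at 344 against 155 CPM, a ratio of 1.15 (1.0 to 1.31). The tight junction scaffold Tjp1, which binds connexins, was lower in BAs, with a ratio of -2.46 (-2.60 to -2.32). In untreated PCs 3 of 9 were higher than in capillary ECs, Cdh2 by 5.16 (4.45 to 5.94), Src by 5.36 (3.79 to 7.37) and Dbn1 by 4.63 (3.23 to 6.25), and 6 were lower, where 38.3% of all genes were past 2-fold. Between arterial and capillary ECs of the untreated library the median of the 7 measured was -0.081, beside 0.075 over all genes.

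Between the denervated and sham libraries, the partner Src was past 2-fold higher in BAs, with a log2 ratio of 1.71 (0.46 to 3.17) from 24 and 7 UMIs. In this comparison 15.4% of all genes were past 2-fold higher. Cdh2 stood at 0.96 (0.77 to 1.16), 129 against 66.0 CPM, beside 116 CPM in the untreated library, so that it too was lowest in the sham library. In capillary ECs 3 of 7 regulators were past 2-fold higher, Klf2 (2.07), Hey1 (1.25) and Tbx3 (1.14), where 12.6% of all genes were past 2-fold higher. The median of the 7 was 0.62 beside 0.11 over all genes. In the untreated, sham and denervated libraries Klf2 stood at 546, 203 and 855 CPM, Hey1 at 30, 20.5 and 48.9 CPM and Tbx3 at 248, 96.6 and 212 CPM, so that all 3 were lowest in the sham library. Over the untreated library the denervated median of the 7 was 0.26 beside 0.090. Of 6 partners Cnst was past 2-fold lower in the denervated than in the sham library (-1.04), where 9.09% of all genes were past 2-fold lower.

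Other connexins and the related pannexins had few UMIs. Of 19 further family genes 8 were not analysed here. Panx1 had 36, 27 and 22 UMIs in the kept nuclei of the untreated, sham and denervated libraries, and Gjc3, a connexin of glia, had 15, 31 and 3. In the sham library 27 of the Gjc3 UMIs lay in the 128 Schwann nuclei (340 CPM). The other family genes had at most 11 UMIs in a library. The members had 5679 Gja1, 425 Gjc1, 85 Gja4 and 67 Gja5 UMIs in the untreated library, counts that are not compared as levels.

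The genes whose levels ran most like each member were found over 15 points, the 6 adipocyte, endothelial and mural classes in the libraries that held them, by Pearson's r of log2(CPM + 10) among 8188 genes. Points of 1 library share its depth, so the values are a description. For Gja1 they were Mtss1 (r = 0.94), Stox2 (0.93), Palmd (0.90), Qdpr (0.90) and Npr1 (0.88). For Gja4 they were Pld1 (0.94), Fchsd2 (0.92), Tbc1d1 (0.91), Frmd4b (0.91) and Gper1 (0.91). For Gja5 they were Camk4 (0.95), Mannr (0.93), Nebl (0.92), which is an arterial marker here, Alox12 (0.91) and Lama3 (0.91). For Gjc1 they were Asap2 (0.96), Mfge8 (0.96), Gnb4 (0.96), Ecm2 (0.95) and Pck2 (0.95).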

How the data were processed

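The deposited values were raw UMI counts, whole numbers for each nucleus and gene. Per the file headers, the untreated and denervated counts came from the BD Rhapsody pipeline 1.9 with GRCm38 and GENCODE vM19, while the sham table has no header. The submitters' processing notes name GRCh38 and Seurat 4.0.6, and mouse gene names fill all 3 tables. The study's removal of debris and free RNA was not repeated. Barcodes needed 200 detected genes and no more than 50% mitochondrial UMIs. A nucleus counted as a doublet and was dropped where 2 of the adipocyte, endothelial and mural lists each had 3 or more UMIs and the lesser reached 25% of the greater (1527, 2694 and 1018 nuclei).

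Each library was clustered on its own (2000 variable genes, 30 principal components, 20 neighbours, Louvain at resolution 0.5, then adipocyte, endothelial and mural nuclei again at resolution 1). Clusters were named from marker lists, needing at least 3 markers 2-fold above other nuclei, and for minor types most of the list. The naming rules were settled once clusters were known. Where classes differ from the study's, the rebuilt names may be why. The connexins were in no marker list and, like mitochondrial genes, were left out of the variable genes. UMIs were summed per class. CPM have exact Poisson intervals, shares Clopper-Pearson intervals and log2 ratios conditional binomial intervals, at 95%. The share past 2-fold over all genes took 0.5 added to each count and at least 20 UMIs in both groups together. Ratios and shares against 0 UMIs used a floor of 3 UMIs over the class. No test was made. Some genes are not reported here.

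The members and lists were chosen with earlier results of these data known. The members were always named, and of the fixed lists genes with at least 10 UMIs in a class named. The likeness genes are the 5 highest by r, with at least 100 UMIs and 50 CPM in one class. Positions came from GENCODE vM21 on GRCm38. Promoter windows came from RefSeq, with a window for 3 of the 4 members. Alternatives were other limits on genes (500) and mitochondrial UMIs (10%), no removal of doublets, joint clustering, resolution 2, the rule per nucleus, subtraction of free RNA, the mean of each nucleus's own CPM, and, chosen after seeing the data, totals without mitochondrial genes and all adipocyte nuclei together. The intervals and the calls at 2-fold were tested on simulated data. Python 3.11.15, numpy 2.4.6, scipy 1.17.1, scikit-learn 1.9.0, igraph 0.11.9 and matplotlib 3.10.9 were used.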

Additional observations from a re-analysis of the deposited data

Results flagged for a closer look

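Gja1 differed in direction between libraries when single nuclei were classed by their own markers. The log2 ratio of arterial over capillary ECs was 0.38 (0.10 to 0.64) in the untreated library, -0.48 (-0.95 to -0.04) in the sham library and 0.68 (0.22 to 1.11) in the denervated library. The values stood out because the sham library went the opposite way to the other two, and the difference between libraries was not tested.

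Barcodes with under 200 detected genes entered no class of nuclei, but gave the profile that was subtracted as free RNA. Whether they held free RNA or shallow nuclei was not tested. These barcodes held connexin UMIs above what a count of 3 allows. Gja1 was at 234 CPM in the untreated library, 83.0 CPM in the sham library and 582 CPM in the denervated library, the last from 508 UMIs in 5358 barcodes. Gjc1 was at 28.2, 27.7 and 81.4 CPM in the same order, and Gja5 at 11.5 CPM (10 UMIs) in the denervated library.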

How the results depend on the processing

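No paired analysis was possible because each condition was 1 library, and for the same reason no library could be left out. Of 218 log2 ratios recomputed under the alternatives, 194 stayed inside the counting interval of the value reported and 24 moved beyond it. The sign changed in 16, in 2 of which the reported interval excluded 0 (marked below as other sign), and 22 more could not be computed, most with a minimum of 500 genes, which left too few UMIs or no class. Of 112 shares of nuclei with a UMI, 60 moved beyond their interval after thinning to 500 or 300 UMIs, which leaves fewer UMIs per nucleus, and of 18 counts of genes past 2-fold 15 moved by over 1.5 times with another minimum of UMIs. Other causes were not tested. Gja5 in arterial over capillary sham ECs became 2.55 with joint clustering and 2.58 by the rule per nucleus. Gja1 in BAs over capillary ECs became, untreated, 0.49 with at most 10% mitochondrial UMIs, 0.56 without removal of doublets, 0.51 as a mean of each nucleus's own CPM and 0.56 without mitochondrial genes. In the sham library it became -0.46 at 10%, -0.50 by the rule per nucleus, -0.36 after subtraction of free RNA and -0.34 as the mean, and in the denervated library 0.79 at 500 genes. Gjc1 in PCs over capillary sham ECs became 1.92 at 10%. Gjc1 in smooth muscle over PCs became -0.039 by the rule per nucleus (sham, other sign), and 1.23 with joint clustering and 1.39 by the rule per nucleus (denervated). Of denervated over sham, Gja1 in BAs became 0.77 as the mean. In capillary ECs Gja1 became -0.0092 at 500 genes (other sign), 0.51 at 10% and 0.53 after subtraction of free RNA, and Gjc1 0.94 at 500 genes and -0.54 at 10%. Gja4 in PCs became -2.26 at 10%, and Gjc1 in smooth muscle 0.20 with joint clustering and 1.0 by the rule per nucleus. For free RNA the smallest ratio over markers of other classes was used, a choice made after a first estimate had been seen.

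Genes past 2-fold with at least 100 UMIs, or 5, numbered 518 or 3440 for arterial over capillary ECs untreated, 597 or 3963 sham, 1596 or 5443 for BAs denervated over sham, 314 or 3219 denervated over untreated, 1491 or 4030 sham over untreated, 644 or 3758 for capillary ECs, and 341 or 3741 for PCs, and 1844 with at least 100 for PCs over capillary ECs untreated. Joint clustering named 93 arterial nuclei in the denervated library. Arterial levels of Gja4 and Gja5 rest on 5 to 38 UMIs a library, which limits what can be seen between libraries.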
